A study of Homo sapiens with 12 samples.

Results

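The genes described here carry out deadenylation, decapping and exosome decay of messenger RNA. They are 50 genes named by symbol: 10 of the CCR4-NOT complex, 3 for the PAN2-PAN3 and PARN deadenylases, 4 BTG/TOB adaptors, 7 decapping factors, 7 subunits of the LSM1-7 ring, the exonuclease XRN1, 12 exosome subunits and 6 factors of nonsense-mediated decay (NMD). All 50 were found among the 26471 genes kept from the tables, and 49 had enough fragments to be tested. PC3, a human prostate adenocarcinoma line, and MG63, a human osteosarcoma line, both labelled wild type, were transfected with 10 nM of siRNA and sequenced as poly(A) RNA after 72 h. In each line 2 libraries received a non-targeting siRNA (siControl), 2 an siRNA against LARP4A (siLARP4A) and 2 an siRNA against LARP4B (siLARP4B), which makes 6 groups and 12 libraries. All groups share the Lipofectamine RNAiMAX transfection, and the sequences of the siRNAs and the number used per target are not given in the sources used here.

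An mRNA in the cytoplasm usually begins to decay when its poly(A) tail is shortened, first by PAN2-PAN3 and then by the CCR4-NOT complex, whose catalytic subunits are CNOT6 or CNOT6L and CNOT7 or CNOT8. The LSM1-7 ring with PATL1 then binds the shortened end and, with the helicase DDX6, brings in the DCP2 decapping enzyme, after which XRN1 degrades the body from the 5′ end. The exosome, a barrel of EXOSC proteins with the nucleases DIS3, DIS3L or EXOSC10, degrades RNA from the 3′ end in the cytoplasm and the nucleus. LARP4A and LARP4B, related RNA-binding proteins that contact poly(A)-binding protein, are known to act on poly(A) tails and mRNA stability.

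The library totals ran from 16950119 to 24864977 fragments. Across genes, the Pearson r between the 2 libraries of a group was 0.994 to 0.995, and the chi-square per degree of freedom was highest for PC3 siLARP4A (6.05) and MG63 siLARP4B (4.81). LARP4, which encodes LARP4A, stood at 19.0 and 19.4 FPKM (fragment counts divided by mRNA length and library size) in PC3 siControl and at 2.36 and 2.47 in PC3 siLARP4A, and at 8.18 and 8.50 in MG63 siControl against 2.11 and 2.19 in MG63 siLARP4A. LARP4B stood at 7.02 and 7.18 FPKM in PC3 siControl and at 1.35 and 1.26 in PC3 siLARP4B, and at 6.64 and 6.77 in MG63 siControl against 1.89 and 2.20 in MG63 siLARP4B. LARP4 was also higher in MG63 siLARP4B than in MG63 siControl (log2 fold change 0.43 ± 0.06 (SE), adjusted p = 8.59e-06). The summed epithelial markers were 961 to 1159 FPKM in PC3 and 63.8 to 81.2 in MG63, and the summed mesenchymal markers 415 to 529 and 4618 to 5327. The prostate marker KLK3 was under 0.05 FPKM in every PC3 library, and the osteoblast gene SP7 was under 0.1 FPKM in every MG63 library.

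Levels of the members in siControl spanned a wide range in both lines. On the FPKM scale, which is per length and so allows genes to be compared, the median over the 47 members without a copy on an alternate sequence was 15.8 in PC3 and 13.9 in MG63. EXOSC4, LSM7 and LSM4, small subunits of the exosome and the LSM ring, led in PC3 at 158 ± 5.8 (SD, n = 2), 137 ± 2 (SD, n = 2) and 135 ± 0.34 (SD, n = 2) FPKM. In MG63 the highest were LSM4 at 108 ± 2.2 (SD, n = 2), LSM7 at 97.3 ± 7.6 (SD, n = 2) and CNOT1, the scaffold of CCR4-NOT, at 64.7 ± 1.8 (SD, n = 2), followed by EXOSC4 at 61.2 ± 0.57 (SD, n = 2). EXOSC4 shares 19.5% of its exonic bases with AC109322.1 on the other strand, and fragments of the pair cannot be separated. LSM7 and LSM4 did not differ beyond the spread of their libraries in PC3, and in MG63 their libraries did not overlap. By role the median level was highest in the LSM ring, at 25.4 FPKM in PC3 and 23.8 in MG63, and in the exosome it was 19.4 and 15.7. The NMD factors had a median of 19.6 FPKM in PC3 and 7.28 in MG63, the widest gap between the lines of any role with more than 1 member. UPF3B, at 29.3 FPKM in PC3 and 5.31 in MG63, moved from above the middle of the 6 factors to below it. In ratio the others differed less, at 74.5 and 43.3 FPKM for UPF1, 31.5 and 30.8 for SMG5, and 9.99 and 7.09 for SMG1. UPF2 stood at 6.26 and 7.46 FPKM and SMG6 at 6.25 and 6.16. The enzymes at the end of the 5′ route were among the lowest: DCP2 stood at 1.91 ± 0.13 (SD, n = 2) FPKM in PC3 and 1.42 ± 0.21 (SD, n = 2) in MG63, and XRN1 at 2.48 ± 0.014 (SD, n = 2) and 3.57 ± 0.015 (SD, n = 2). BTG2, an anti-proliferative adaptor that tethers the CAF1-type deadenylases, was the lowest of the 47 in both lines, at 0.683 ± 0.014 (SD, n = 2) and 0.839 ± 0.046 (SD, n = 2) FPKM.

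**Figure D1:**
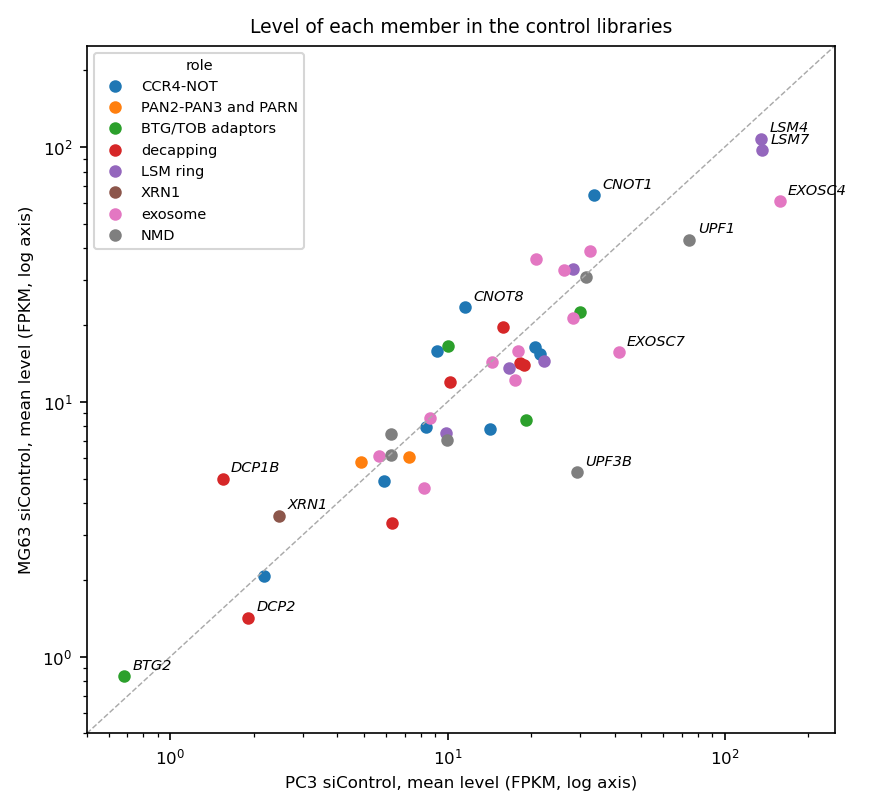
Mean level of each member in the siControl libraries, PC3 on the x axis and MG63 on the y axis, both in FPKM on log axes, with 1 point per gene coloured by role; the dashed line marks equal levels. LSM4, LSM7 and EXOSC4 lie at the top right, BTG2 at the bottom left, UPF3B far below the line and DCP1B above it.

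The lines differed widely without knockdown. Of the 49 tested members 38 passed an adjusted p of 0.05 between PC3 and MG63 siControl, 20 higher and 18 lower in PC3, while 82% of all 15688 genes tested passed. UPF3B, an NMD factor that links the exon junction complex to UPF2, was at 29.9 and 28.6 FPKM in PC3 and 5.17 and 5.45 in MG63 (log2 fold change 2.28 ± 0.08 (SE), adjusted p = 1.20e-17). EXOSC7 and EXOSC4 followed at log2 fold changes of 1.21 ± 0.08 and 1.18 ± 0.07 (SE). DCP1B, a DCP2 cofactor, was at 1.40 and 1.68 FPKM in PC3 and 4.68 and 5.31 in MG63 (log2 fold change -1.88 ± 0.15 (SE), adjusted p = 1.41e-10), and the deadenylase CNOT8 and the scaffold CNOT1 were lower in PC3 with log2 fold changes of -1.21 ± 0.07 and -1.13 ± 0.06 (SE). For these 6 genes, chosen by this same difference, the libraries of the lines did not overlap, which adds no evidence. The share of all genes without overlap was not computed. TMM scaling lowers PC3 against MG63 relative to FPKM, with the log2 ratio of FPKM 0.19 above the fitted log2 fold change over all genes, so SMG5 (-0.15) and SMG6 (-0.17) were lower in PC3 by the fit and had slightly higher mean FPKM there.

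Of the members whose RNA changed strongly in both lines, 4 have their promoter sequence printed here, and others, such as BTG2, do not. The printed sequences also include that of CNOT6, the member called in all 4 comparisons with siControl. Each is the 250 bases before the RefSeq start of the gene (GRCh38.p14), on the strand of the gene, 5′ to 3′, for the 4 where that start lies at the start of the gene model used here and for EXOSC3, where it lies 28 bases away. Capitals mark GGGCGG (the GC box bound by SP1) and CCAAT on either strand, and CCGGAA (an ETS core) on either strand.
EXOSC3 (chr9:37785093-37785342, minus strand): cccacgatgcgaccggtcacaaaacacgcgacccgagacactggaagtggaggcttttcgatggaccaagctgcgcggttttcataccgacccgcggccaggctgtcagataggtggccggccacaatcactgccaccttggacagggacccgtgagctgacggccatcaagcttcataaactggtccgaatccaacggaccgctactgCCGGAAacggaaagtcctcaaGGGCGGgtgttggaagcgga
LSM4 (chr19:18323077-18323326, minus strand): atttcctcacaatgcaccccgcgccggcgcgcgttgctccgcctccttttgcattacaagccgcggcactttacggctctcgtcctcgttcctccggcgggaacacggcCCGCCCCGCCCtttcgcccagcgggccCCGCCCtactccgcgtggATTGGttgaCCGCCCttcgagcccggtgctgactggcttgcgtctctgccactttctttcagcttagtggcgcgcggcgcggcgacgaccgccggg
LSM5 (chr7:32490381-32490630, minus strand): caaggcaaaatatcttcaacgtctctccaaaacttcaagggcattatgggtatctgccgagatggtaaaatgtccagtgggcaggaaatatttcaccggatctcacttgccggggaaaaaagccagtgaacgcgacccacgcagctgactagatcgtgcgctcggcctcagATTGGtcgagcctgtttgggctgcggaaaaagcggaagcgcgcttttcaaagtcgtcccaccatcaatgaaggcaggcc
DCP2 (chr5:112976548-112976797, plus strand): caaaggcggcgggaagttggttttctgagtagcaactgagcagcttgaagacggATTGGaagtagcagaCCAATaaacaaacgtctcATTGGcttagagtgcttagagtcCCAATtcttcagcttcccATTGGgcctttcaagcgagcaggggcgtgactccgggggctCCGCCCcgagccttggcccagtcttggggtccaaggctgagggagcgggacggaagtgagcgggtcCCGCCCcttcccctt
CNOT6 (chr5:180494129-180494378, plus strand): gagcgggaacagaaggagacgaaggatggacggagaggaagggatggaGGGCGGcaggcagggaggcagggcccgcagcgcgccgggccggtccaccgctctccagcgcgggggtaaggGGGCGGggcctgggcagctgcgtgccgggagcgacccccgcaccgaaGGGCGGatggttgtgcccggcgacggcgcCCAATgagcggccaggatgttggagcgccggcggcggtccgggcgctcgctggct

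EXOSC3, LSM4 and LSM5, which fell under siLARP4B in both lines, have no searched motif in common. EXOSC3 has 1 GGGCGG and 1 CCGGAA, LSM4 has 4 GGGCGG, overlapping copies counted, and 1 CCAAT, and LSM5 has 1 CCAAT. DCP2 holds 5 copies of CCAAT, a number that 0.363% of the 27305 windows in the RefSeq table reach, and 2 of GGGCGG. CNOT6 holds 3 GGGCGG and 1 CCAAT. Of the 44 members with a window, 35 have GGGCGG and 20 have CCAAT, against 42.3% and 33% of all windows, and 2 have TATAAA against 11.1%. CCGGAA is in 9 members against 14.8% of windows and the CRE motif TGACGTCA in 0 against 1.77%, all on both strands. The windows compared with were not limited to genes expressed in these cells, so these shares cannot set the members apart from other expressed genes. A match is a run of letters, and binding was not measured.

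Between 13 and 27 of the 49 tested members changed in each comparison of a knockdown with siControl. In PC3 siLARP4A 20 of 49 passed (7 higher, 13 lower) against 36.4% of all genes tested, with 19.5% higher and 16.9% lower. In PC3 siLARP4B 27 passed (6 higher, 21 lower) against 45.6%, with 24.8% higher and 20.8% lower. In MG63 siLARP4A 13 passed (4 higher, 9 lower) against 26.8%, with 13.3% higher and 13.5% lower, and in MG63 siLARP4B 18 passed (7 higher, 11 lower) against 34.9%, with 18% higher and 16.9% lower. The members' median log2 fold change lay near that of all genes in 3 of the comparisons, at -0.03 against 0.03 in PC3 siLARP4A, -0.01 against 0.00 in MG63 siLARP4A and 0.02 against 0.00 in MG63 siLARP4B. The MG63 siLARP4A count was 8 without MG63 siControl replicate 1, 6 without siControl replicate 2 and 7 without siLARP4A replicate 1, and 8 by DESeq2. The median was lower in PC3 siLARP4B, at -0.11 against 0.04. In bulk RNA such as this, fewer cells that express a gene and less RNA per cell cannot be told apart, and both siRNAs of a line are compared with the same 2 siControl libraries. The sources do not say whether the 2 libraries of a group come from separate cultures, so p-values measure the spread between these libraries, which may be technical.

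**Figure D2:**
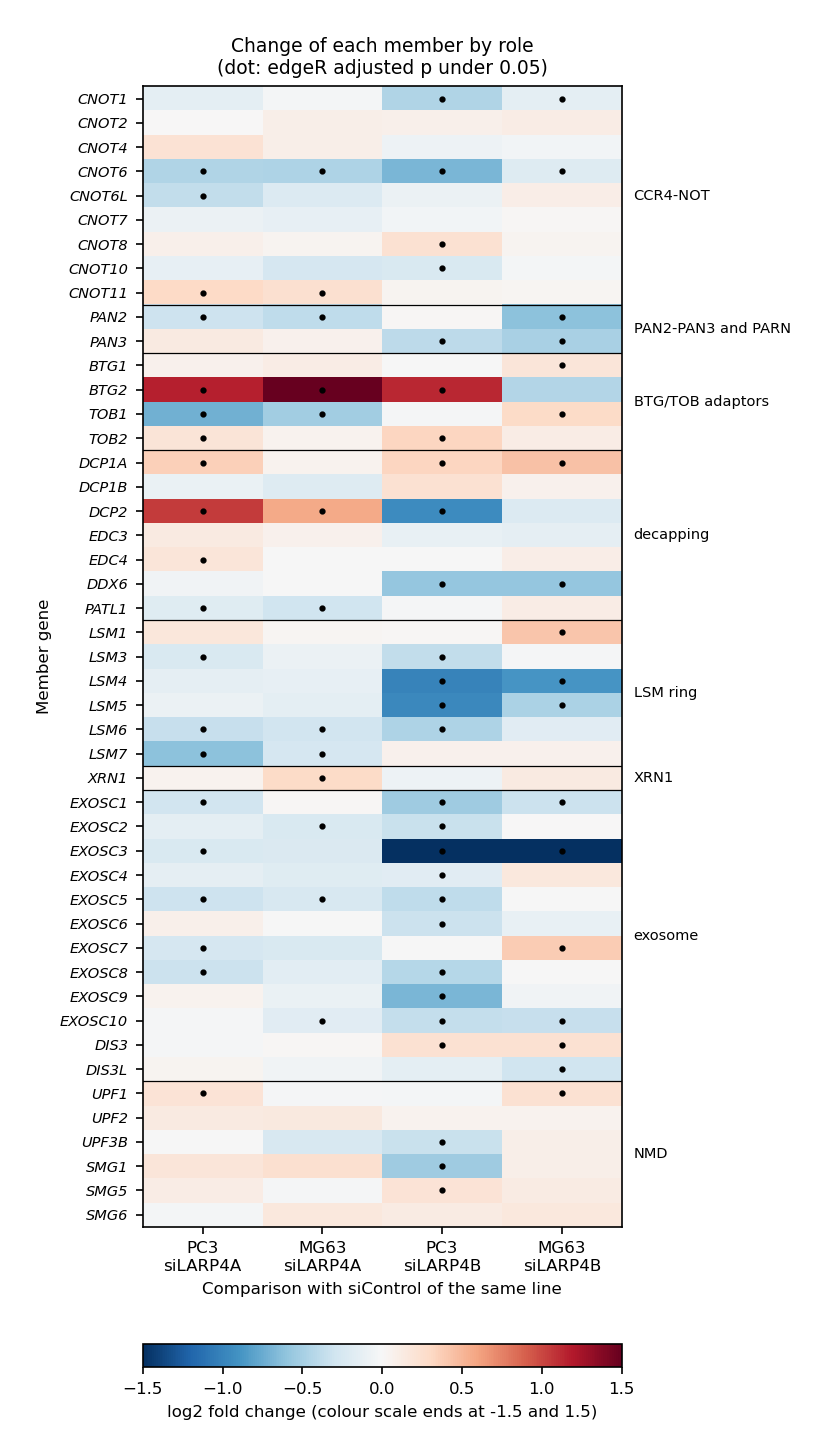
Log2 fold change against siControl of the same line for the 47 members without a copy on an alternate sequence, in rows ordered by role, with the 4 comparisons in columns; blue is lower, red higher, and a dot marks an edgeR adjusted p under 0.05. The exosome rows are mostly blue in PC3 siLARP4B, EXOSC3 is dark blue under siLARP4B in both lines, and CNOT6 is marked in every column.

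Among the exosome subunits, siLARP4B in PC3 lowered 9 of 12 and raised 1, with a median log2 fold change of -0.34, where 20.8% of all genes were lower and 24.8% higher. In MG63 the same siRNA lowered 4 and raised 2, with a median of -0.03, where 16.9% of all genes were lower and 18% higher. The exosome calls under siLARP4A, 5 in PC3 and 3 in MG63, were all lower, with medians of -0.14 and -0.17, where 16.9% and 13.5% of all genes were lower. The PC3 siLARP4B count of lower subunits ran from 8 to 10 under the other processing settings and from 7 to 10 when 1 library was left out. Those under siLARP4A held less firmly. When 1 library was left out, the PC3 count ran from 2 to 7 and the MG63 count from 0 to 4. Under the other processing settings they ran from 1 to 6 in PC3 and from 0 to 4 in MG63.

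EXOSC3 (chr9:37779714-37785064, minus strand), a cap subunit of the exosome that holds an S1 RNA-binding domain, changed most of the 47 members without a copy on an alternate sequence. In PC3 it stood at 18.1 and 16.9 FPKM in siControl, 14.0 and 15.5 in siLARP4A and 3.48 and 3.64 in siLARP4B. In MG63 the values were 11.8 and 12.5 FPKM in siControl, 9.79 and 11.1 in siLARP4A and 3.83 and 4.12 in siLARP4B. All 4 siLARP4B libraries lay far below the other 8, with no overlap. EXOSC3 fell to 20.4% of siControl in PC3 (log2 fold change -2.30 ± 0.11 (SE), adjusted p = 1.96e-13) and to 32.7% in MG63 (-1.60 ± 0.11 (SE), adjusted p = 2.96e-10). Among genes with a mean of at least 5 FPKM in either group, it was the 5th lowest of 8651 in PC3 and the 6th lowest of 8045 in MG63. The change under siLARP4A was far smaller and called in PC3 (-0.23 ± 0.08 (SE), adjusted p = 0.0342), where it was lost without siControl replicate 1 (-0.17) or siLARP4A replicate 1 (-0.16), and was -0.22 in MG63 with an adjusted p of 0.0907. Both deposited models of the gene gave the same picture, at 20.4% to 21.1% of siControl in PC3 siLARP4B and 32.2% to 32.7% in MG63 siLARP4B.

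The other barrel and cap subunits moved less. EXOSC9, a ring subunit, was at 20.3 and 21.3 FPKM in PC3 siControl and 13.3 and 12.7 in PC3 siLARP4B, a fall to 62.4% (log2 fold change -0.68 ± 0.07 (SE), adjusted p = 8.32e-08). In MG63 its siControl values were 36.3 and 36.4 FPKM and its siLARP4B values 33.7 and 35.5 FPKM, and the change of -0.05 did not pass (adjusted p = 0.548). EXOSC1, a cap subunit, fell in both lines under siLARP4B, with log2 fold changes of -0.54 ± 0.11 and -0.33 ± 0.11 (SE), and EXOSC10, the nuclear nuclease, with -0.35 ± 0.06 and -0.34 ± 0.06. EXOSC2, EXOSC4, EXOSC5, EXOSC6 and EXOSC8 fell in PC3 siLARP4B with log2 fold changes from -0.17 (EXOSC4) to -0.43 (EXOSC8), and none of them was called in MG63 siLARP4B, where they ranged from -0.11 (EXOSC6) to 0.16 (EXOSC4). The processive nuclease DIS3 rose under siLARP4B in both lines, by 0.23 ± 0.07 in PC3 and 0.22 ± 0.07 in MG63, and its cytoplasmic relative DIS3L fell in MG63 siLARP4B (-0.29 ± 0.07). EXOSC7, a ring subunit, was at 15.6 and 15.8 FPKM in MG63 siControl and 20.9 and 19.4 in MG63 siLARP4B and rose there (log2 fold change 0.38 ± 0.09 (SE), adjusted p = 0.00150), while in PC3 its change under the same siRNA was -0.01 (adjusted p = 0.938). Under siLARP4A, EXOSC5 was the subunit called in both lines (-0.31 in PC3 and -0.24 in MG63), beside EXOSC1, EXOSC3, EXOSC7 and EXOSC8 in PC3 and EXOSC2 and EXOSC10 in MG63, all lower.

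Several of these small changes were no longer called when 1 library was left out. In PC3 siLARP4B the call of EXOSC4 was lost without siControl replicate 1 (-0.13), siLARP4B replicate 1 (-0.20) or siLARP4B replicate 2 (-0.14), and that of EXOSC6 without siControl replicate 1 (-0.23). DIS3 was lost in PC3 without siControl replicate 2 (0.22), siLARP4B replicate 1 (0.17) or either MG63 siLARP4A library, and in MG63 without siControl replicate 1 (0.17). Of the exonic bases of EXOSC10, 39.3% are shared with AL109811.1 on the other strand, and 13.6% of those of EXOSC7 with CLEC3B on the same strand. DIS3 shares 11.2% of its exonic bases with genes on the other strand, mainly BORA. The fragments of such pairs cannot be told apart here. In MG63 siLARP4B, EXOSC1 was lost without either siControl library or siLARP4B replicate 2 (-0.36 to -0.21) and DIS3L without siControl replicate 1 (-0.21). In PC3 siLARP4A, EXOSC1 and EXOSC7 were lost without siControl replicate 1 (-0.21 and -0.21) or siLARP4A replicate 1 (-0.14 and -0.21), and EXOSC5 without siControl replicate 2 (-0.26). In MG63 siLARP4A the 3 exosome calls were lost without either siControl library and in other omissions, at -0.22 to -0.15 for EXOSC2, -0.27 to -0.19 for EXOSC5 and -0.19 to -0.11 for EXOSC10.

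In the LSM ring siLARP4B lowered 4 of the 6 tested subunits in PC3, where 20.8% of all genes were lower, and in MG63 it lowered 2 and raised 1, where 16.9% were lower and 18% higher. LSM4 (chr19:18306236-18323076, minus strand), a subunit shared by the cytoplasmic LSM1-7 and nuclear LSM2-8 rings, was at 135 and 135 FPKM in PC3 siControl, 118 and 125 in siLARP4A and 71.1 and 64.2 in siLARP4B. In MG63 it was at 106 and 109 FPKM in siControl, 94.7 and 103 in siLARP4A and 58.3 and 56.6 in siLARP4B. The siLARP4B libraries of each line lay below all others of that line. LSM4 fell to 50.1% of siControl in PC3 (log2 fold change -1.0 ± 0.06 (SE), adjusted p = 3.32e-12) and to 53.3% in MG63 (-0.89 ± 0.06 (SE), adjusted p = 1.08e-10). Its changes under siLARP4A were -0.13 and -0.13 and did not pass, with adjusted p-values of 0.0539 and 0.0913.

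LSM5 (chr7:32485338-32490380, minus strand), also shared by both rings, was at 16.0 and 17.4 FPKM in PC3 siControl, 15.5 and 15.4 in siLARP4A and 8.32 and 8.86 in siLARP4B, and at 13.7 and 13.5 FPKM in MG63 siControl, 12.7 and 11.96 in siLARP4A and 9.74 and 9.51 in siLARP4B. It was lowest in the siLARP4B libraries of both lines, with no overlap. The fall was to 51.5% in PC3 (log2 fold change -0.96 ± 0.07 (SE), adjusted p = 6.66e-10) and 70.9% in MG63 (-0.48 ± 0.07 (SE), adjusted p = 2.82e-05). LSM3 and LSM6 fell in PC3 siLARP4B, with log2 fold changes of -0.37 ± 0.07 and -0.46 ± 0.10 (SE) and were -0.02 and -0.17 in MG63, neither called. LSM1, the subunit that sets the cytoplasmic ring apart, was at 32.3 and 33.9 FPKM in MG63 siControl and 43.6 and 43.5 in MG63 siLARP4B and rose there (log2 fold change 0.41 ± 0.08 (SE), adjusted p = 2.45e-04). In PC3 the siControl values of LSM1, 25.9 and 31.0 FPKM, enclosed the siLARP4B values, 29.1 and 28.7 FPKM. Of LSM1's exonic bases 38.5% are shared with AC084024.3 on the other strand. LSM2 had 3 fragments in the 12 libraries on its primary copy and 76 on copies in alternate sequences, and was not tested.

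Under siLARP4A the ring member that changed most was LSM7. Its values were 138 and 135 FPKM in PC3 siControl, 82.9 and 93.1 in PC3 siLARP4A and 145 and 142 in PC3 siLARP4B, so that only the siLARP4A libraries were low. It fell to 64.4% of siControl (log2 fold change -0.62 ± 0.07 (SE), adjusted p = 1.01e-06). In MG63 the values were 103 and 92.0 FPKM in siControl and 75.3 and 88.2 in siLARP4A, a smaller fall (-0.25 ± 0.08 (SE), adjusted p = 0.0226) that was lost without siControl replicate 1 (-0.15) or siLARP4A replicate 1 (-0.13). LSM6 was called lower under siLARP4A in PC3 (-0.34, and -0.20 and not called without siLARP4A replicate 1) and in MG63 (-0.29, adjusted p = 0.0449), where leaving out any of 10 libraries ended the call (-0.36 to -0.20). LSM3 was lower in PC3 siLARP4A (-0.23), a call lost without siControl replicate 1 (-0.18) or siLARP4A replicate 1 (-0.18).

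**Figure D3:**
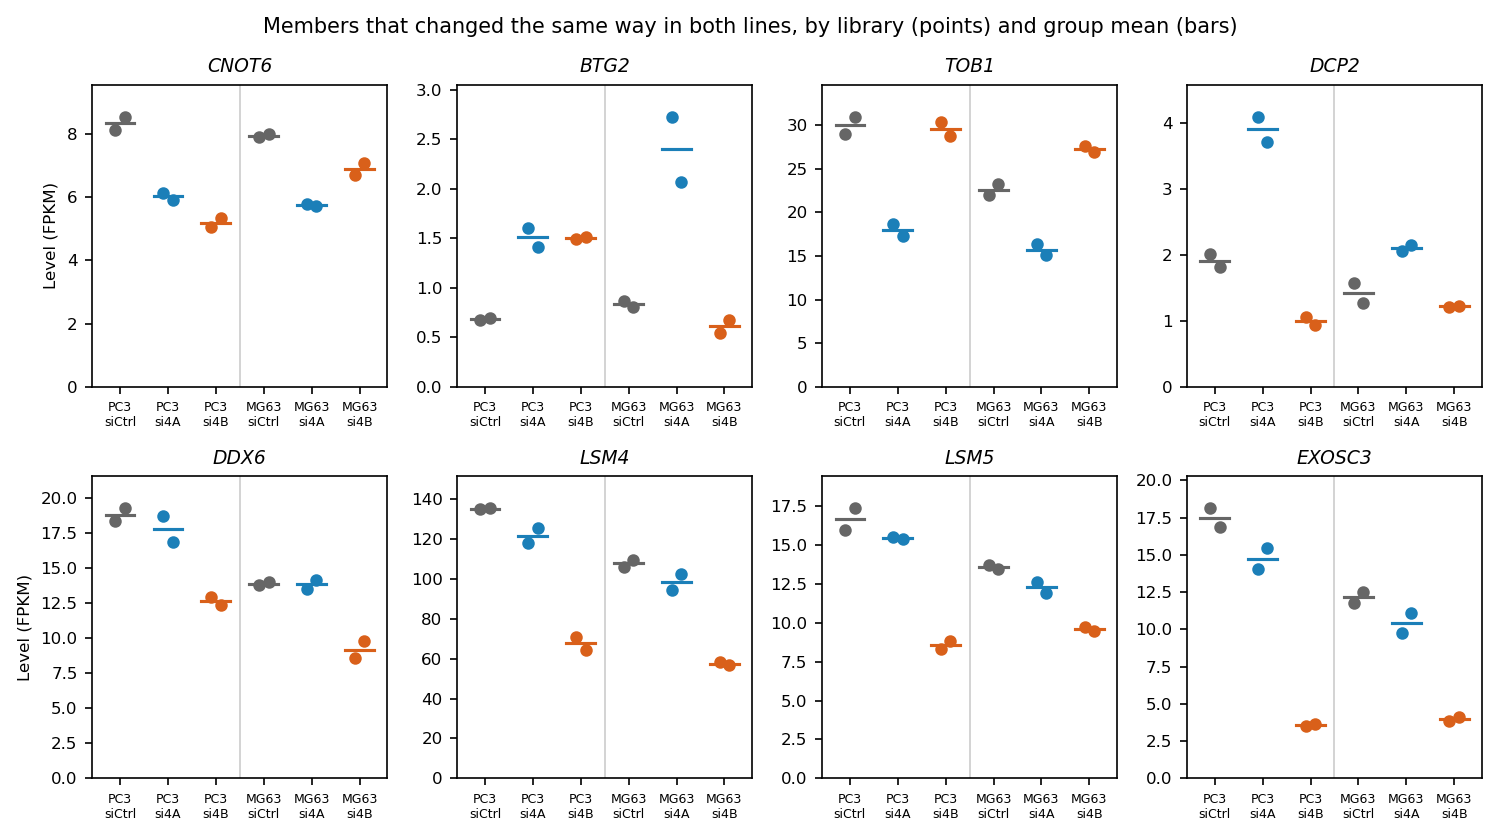
FPKM of each library (points) and group mean (bars) for the 8 members called in the same direction in both lines under 1 siRNA with a log2 size of at least 0.4 in each; siCtrl is siControl, si4A siLARP4A and si4B siLARP4B, and each panel has its own axis from 0. EXOSC3, LSM4, LSM5 and DDX6 are lowest in the siLARP4B libraries of both lines, TOB1 in the siLARP4A libraries, and DCP2 is highest in siLARP4A.

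DCP2 (chr5:112976798-113022195, plus strand), the enzyme that removes the cap, moved in opposite directions under the siRNAs in PC3. It was at 2.00 and 1.82 FPKM in siControl, 4.09 and 3.71 in siLARP4A and 1.06 and 0.934 in siLARP4B. In MG63 it was at 1.57 and 1.27 FPKM in siControl, 2.06 and 2.15 in siLARP4A and 1.21 and 1.23 in siLARP4B. The siLARP4A libraries were the highest of each line and overlapped no other group, while in MG63 the siLARP4B libraries lay just below siControl. DCP2 rose under siLARP4A to 204% of siControl in PC3 (log2 fold change 1.05 ± 0.09 (SE), adjusted p = 1.28e-08) and to 148% in MG63 (0.57 ± 0.11 (SE), adjusted p = 3.34e-04). Under siLARP4B it fell to 52.1% in PC3 (-0.94 ± 0.11 (SE), adjusted p = 6.28e-07) and was -0.21 in MG63 (adjusted p = 0.173). All 3 deposited models of the gene gave 204% to 206% of siControl in PC3 siLARP4A.

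DCP1A, the activator of DCP2, was at 6.48 and 6.13 FPKM in PC3 siControl, 8.40 and 7.51 in siLARP4A and 7.72 and 8.09 in siLARP4B, with both knockdowns above siControl (0.36 ± 0.07 (SE), adjusted p = 6.48e-04, and 0.32 ± 0.08 (SE), adjusted p = 0.00140). In MG63 it was at 3.22 and 3.45 FPKM in siControl, 3.68 and 3.26 in siLARP4A and 4.54 and 4.38 in siLARP4B and rose under siLARP4B (0.44 ± 0.09 (SE), adjusted p = 4.70e-04). DDX6 (chr11:118747764-118790948, minus strand), the helicase that links deadenylation, repression and decapping, was at 18.3 and 19.3 FPKM in PC3 siControl, 18.7 and 16.9 in siLARP4A and 12.9 and 12.3 in siLARP4B. Its MG63 values were 13.8 and 14.0 FPKM in siControl, 13.5 and 14.1 in siLARP4A and 8.57 and 9.78 in siLARP4B. Only the siLARP4B libraries were low, and they overlapped no other group of their line. DDX6 fell by nearly the same amount in both lines, with log2 fold changes of -0.57 ± 0.06 (SE), adjusted p = 2.31e-07 in PC3 and -0.58 ± 0.07 (SE), adjusted p = 7.57e-07 in MG63.

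Among the remaining decapping factors, PATL1, a scaffold that joins the LSM ring to DCP2, fell under siLARP4A in PC3 (-0.19) and MG63 (-0.30). The PC3 call was lost without either siControl library or siLARP4A replicate 2 (-0.23 to -0.09) and the MG63 call without siControl replicate 2 (-0.24). EDC4, the large scaffold of the decapping complex, was higher in PC3 siLARP4A (0.19), a call that ended without any of 6 libraries (0.12 to 0.16). EDC4 shares 21.2% of its exonic bases with AC040162.3 on the same strand. EDC3 and DCP1B passed in no comparison with siControl. EDC3 shares 13.7% of its exonic bases with genes on the other strand, mainly CLK3. XRN1, which degrades decapped RNA, was at 3.58 and 3.56 FPKM in MG63 siControl and 4.28 and 4.47 in MG63 siLARP4A and rose there (0.29 ± 0.10 (SE), adjusted p = 0.0428), without overlap, but the call ended when any of 7 libraries was left out (0.27 to 0.33). In PC3 siLARP4A the XRN1 values, 2.94 and 2.10 FPKM, lay on either side of siControl.

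In the CCR4-NOT complex the nuclease CNOT6 (chr5:180494379-180578357, plus strand) was the one member of all 49 called in each of the 4 comparisons with siControl, lower every time. The share of all genes called in all 4 was not computed, and the single comparisons called 26.8% to 45.6% of them. Both siRNAs of a line share its siControl libraries, so the 4 comparisons are not independent. Its PC3 values were 8.12 and 8.53 FPKM in siControl, 6.13 and 5.90 in siLARP4A and 5.05 and 5.33 in siLARP4B. In MG63 they were 7.89 and 7.99 FPKM in siControl, 5.78 and 5.73 in siLARP4A and 6.68 and 7.06 in siLARP4B. Every knockdown library lay below every siControl library of its line. The log2 fold changes were -0.45 ± 0.06 (SE), adjusted p = 8.62e-06 in PC3 siLARP4A, -0.69 ± 0.07 (SE), adjusted p = 2.19e-08 in PC3 siLARP4B, -0.46 ± 0.07 (SE), adjusted p = 1.32e-05 in MG63 siLARP4A and -0.19 ± 0.06 (SE), adjusted p = 0.0239 in MG63 siLARP4B. The last call was lost without either MG63 siControl library or MG63 siLARP4B replicate 1 (-0.19 to -0.15).

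Its paralogue CNOT6L fell in PC3 siLARP4A (-0.37), a call lost without siControl replicate 2 (-0.26), and in no other comparison with siControl. The scaffold CNOT1 was at 33.8 and 33.7 FPKM in PC3 siControl and 24.3 and 25.0 in PC3 siLARP4B, a fall to 73.1% (log2 fold change -0.46 ± 0.06 (SE), adjusted p = 2.14e-06). In MG63 siLARP4B its change was -0.15 (adjusted p = 0.0484), and leaving out any of 9 libraries ended that call (-0.17 to -0.09). CNOT11, a subunit of the N-terminal module, rose under siLARP4A in PC3 (0.30 ± 0.06) and MG63 (0.24 ± 0.07, SE), the MG63 call being lost without siControl replicate 2 (0.19) or siLARP4A replicate 1 (0.23). CNOT8 was higher (0.23) and CNOT10 lower (-0.23) in PC3 siLARP4B, and these calls ended without any of 8 libraries for CNOT8 (0.16 to 0.18) and any of 3 for CNOT10 (-0.26 to -0.19). CNOT2, CNOT3, CNOT4 and CNOT7 passed in no comparison with siControl. CNOT3 has 8.1% of its fragments on copies in alternate sequences. CNOT1 shares 11.2% of its exonic bases with genes on the other strand, mainly SETD6.

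Of the other deadenylases, PAN2, the nuclease of PAN2-PAN3, was at 7.43 and 7.12 FPKM in PC3 siControl, 5.67 and 5.88 in siLARP4A and 7.48 and 7.31 in siLARP4B, and at 6.33 and 5.84 FPKM in MG63 siControl, 4.66 and 4.65 in siLARP4A and 4.15 and 3.68 in siLARP4B. It was low under siLARP4A in both lines and under siLARP4B in MG63, with no overlap. PAN2 fell, with log2 fold changes of -0.32 ± 0.07 (SE), adjusted p = 0.00174 in PC3 siLARP4A, -0.39 ± 0.08 (SE), adjusted p = 8.08e-04 in MG63 siLARP4A and -0.62 ± 0.08 (SE), adjusted p = 3.25e-06 in MG63 siLARP4B. Its change in PC3 siLARP4B was 0.02 (adjusted p = 0.844). PAN3, the subunit that binds RNA and poly(A)-binding protein, fell under siLARP4B in both lines, from 4.88 and 4.87 to 3.69 and 3.78 FPKM in PC3 (-0.39 ± 0.08 (SE), adjusted p = 3.36e-04) and from 5.86 and 5.75 to 3.93 and 4.29 FPKM in MG63 (-0.48 ± 0.08 (SE), adjusted p = 3.31e-05). Under siLARP4A it was 0.14 and 0.07, neither called. PARN cannot be read from these tables, because its fragments moved between the primary copy and a copy on an alternate sequence from library to library: PC3 siControl replicate 1 had 41 and 5, and PC3 siLARP4A replicate 2 had 4 and 140.

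The BTG/TOB adaptors, which recruit CCR4-NOT to poly(A)-binding protein or to chosen mRNAs, held the largest rise of those 47. BTG2 (chr1:203305519-203309601, plus strand) was at 0.674 and 0.693 FPKM in PC3 siControl, 1.61 and 1.41 in siLARP4A and 1.49 and 1.51 in siLARP4B. In MG63 it was at 0.871 and 0.806 FPKM in siControl, 2.73 and 2.07 in siLARP4A and 0.542 and 0.680 in siLARP4B. The knockdown libraries of PC3 and the siLARP4A libraries of MG63 were all above siControl, and the MG63 siLARP4B libraries were all below it. The rises were to 221% of siControl in PC3 siLARP4A (log2 fold change 1.17 ± 0.21 (SE), adjusted p = 1.64e-04), 220.0% in PC3 siLARP4B (1.13 ± 0.22 (SE), adjusted p = 2.13e-04) and 286% in MG63 siLARP4A (1.51 ± 0.19 (SE), adjusted p = 4.18e-06). In MG63 siLARP4B the change was -0.44 (adjusted p = 0.185). BTG2 is a gene of low level here, with as few as 29 fragments in a library.

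TOB1 (chr17:50862226-50866354, minus strand), which links poly(A)-binding protein to the deadenylases, was at 29 and 30.9 FPKM in PC3 siControl, 18.6 and 17.3 in siLARP4A and 30.4 and 28.7 in siLARP4B, and at 22.0 and 23.2 FPKM in MG63 siControl, 16.3 and 15.1 in siLARP4A and 27.6 and 26.9 in siLARP4B. The siLARP4A libraries were the lowest of each line, and the siLARP4B libraries of MG63 the highest. TOB1 fell under siLARP4A to 59.9% of siControl in PC3 (log2 fold change -0.72 ± 0.06 (SE), adjusted p = 1.85e-08) and 69.6% in MG63 (-0.52 ± 0.07 (SE), adjusted p = 5.46e-06), and rose under siLARP4B in MG63 (0.29 ± 0.06 (SE), adjusted p = 0.00138). TOB2, its paralogue, was at 10.5 and 9.66 FPKM in PC3 siControl, 11.0 and 11.9 in siLARP4A and 12.9 and 12.3 in siLARP4B and was higher under both (0.20 and 0.33 ± 0.07 (SE), adjusted p = 4.28e-04). The siLARP4A call of TOB2 (adjusted p = 0.0247) ended without any of 8 libraries (0.13 to 0.16). BTG1 was called only in MG63 siLARP4B (0.19), a call lost without siControl replicate 2 (0.12) or siLARP4B replicate 2 (0.16). TOB1 shares 11.1% of its exonic bases with TOB1-AS1 on the other strand, and BTG1 10.4% with other genes on its own strand.

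Of the 6 NMD factors, edgeR called 1 in PC3 siLARP4A, 3 in PC3 siLARP4B, 0 in MG63 siLARP4A and 1 in MG63 siLARP4B, against 36.4%, 45.6%, 26.8% and 34.9% of all genes tested. At an unadjusted p under 0.05 the count in MG63 siLARP4A was 2, DESeq2 called 0, and under the other settings up to 2 were called higher and up to 1 lower. UPF1, the helicase at the centre of NMD, was higher in PC3 siLARP4A (0.20 ± 0.05) and in MG63 siLARP4B (0.23 ± 0.05, SE). UPF3B and the kinase SMG1 fell in PC3 siLARP4B, with log2 fold changes of -0.33 ± 0.06 and -0.53 ± 0.14 (SE), and SMG5, which brings in decay enzymes, rose there (0.21 ± 0.05). SMG1 has near-identical copies in the genome and its replicates stood apart, at 13.2 and 9.14 FPKM in PC3 siLARP4A and 5.91 and 8.92 in MG63 siLARP4B, and its call ended without PC3 siControl replicate 2 (-0.41). UPF2 and SMG6 passed in no comparison with siControl. SMG6 shares 25.4% of its exonic bases with genes on the other strand, mainly HIC1.

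Calls in the same direction in both lines numbered 10 of 49 under siLARP4A, 3 higher and 7 lower, against 7.59% and 7.34% of all genes tested. They were CNOT11, BTG2 and DCP2, higher, and CNOT6, PAN2, TOB1, PATL1, LSM6, LSM7 and EXOSC5, lower. Under siLARP4B they numbered 11, 2 higher and 9 lower, against 8.37% and 8.57%: DCP1A and DIS3 were higher, and CNOT1, CNOT6, PAN3, DDX6, LSM4, LSM5, EXOSC1, EXOSC3 and EXOSC10 lower. Under either siRNA 0 members were called in opposite directions in PC3 and MG63; of all 15688 genes tested 197 were under siLARP4A and 527 under siLARP4B, so that 0 of 49 is near the background. Without MG63 siControl replicate 2 or MG63 siLARP4A replicate 1 the siLARP4A number was 6, and without MG63 siControl replicate 1 the siLARP4B number was 7.

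**Figure D4:**
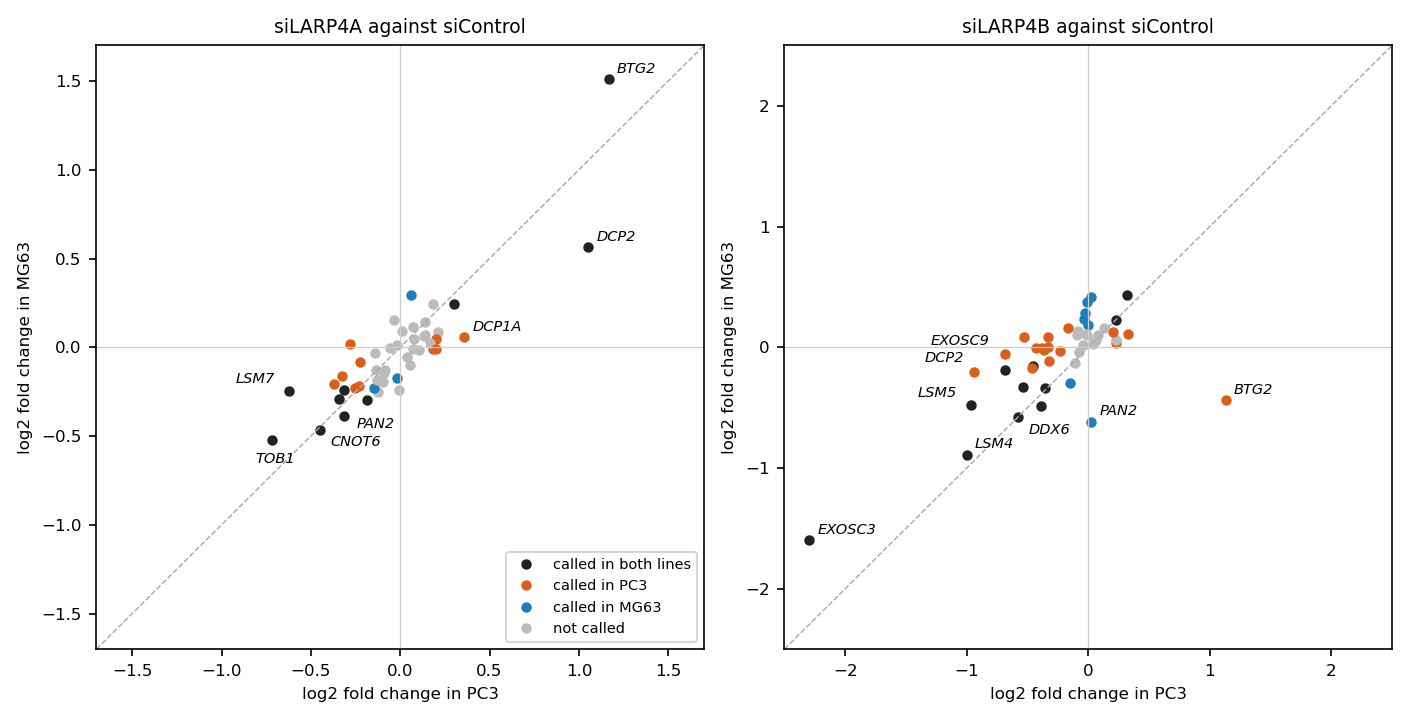
Log2 fold change against siControl in PC3 (x axis) and MG63 (y axis) for siLARP4A on the left and siLARP4B on the right, 1 point per member for the 47 without a copy on an alternate sequence, with black for members called in both lines; the dashed line marks equal change. BTG2 and DCP2 lie at the top right under siLARP4A, EXOSC3 and LSM4 at the bottom left under siLARP4B, and a row of points called in PC3 lies along the zero line of MG63 under siLARP4B.

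The size of the siLARP4B effect differed between the lines for 20 of 49 members by the interaction test, against 26.8% of all genes tested, and 18 of the 20, PARN counted, were more negative in PC3, against 14.3% of all genes. Some of these differences came from rises in MG63 with no call in PC3. The log2 fold changes in PC3 and MG63 were 0.02 and 0.41 for LSM1 and -0.02 and 0.29 for TOB1. They were -0.03 and 0.23 for UPF1 and -0.01 and 0.38 for EXOSC7. Others, such as EXOSC9, fell in PC3. The median difference, PC3 minus MG63, was -0.19 for the members and 0.02 for all genes. In the exosome 7 of 12 were more negative in PC3, with a median of -0.33, and the number was 4 to 8 when 1 library was left out, with the calls of EXOSC2, EXOSC4, EXOSC5 and EXOSC7 lost without 1 or another of the PC3 siControl or PC3 siLARP4B libraries. EXOSC3 fell in both lines and more in PC3, with a difference of -0.70 ± 0.16 (SE), adjusted p = 0.00228, and EXOSC9 differed by -0.63 ± 0.09 (SE), adjusted p = 3.26e-05. DCP2 (-0.73 ± 0.16 (SE), adjusted p = 0.00181) and CNOT6 (-0.50 ± 0.09 (SE), adjusted p = 3.52e-04) were also more negative in PC3. BTG2 (1.57 ± 0.33 (SE), adjusted p = 0.00123) and PAN2 (0.64 ± 0.11 (SE), adjusted p = 1.44e-04) were the 2 with the opposite sign. LARP4B itself had fallen further in PC3, with a difference of -0.75 ± 0.11 (SE) beside these, and its part in them was not tested.

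For siLARP4A the interaction test called 2 of 49 members, 1 in each direction, against 11.2% of all genes tested, with 5.74% more positive and 5.45% more negative in PC3. DCP2 rose more in PC3 (0.48 ± 0.14 (SE), adjusted p = 0.0287) and LSM7 fell more in PC3 (-0.37 ± 0.11 (SE), adjusted p = 0.0286). Without any of 5 libraries the DCP2 call ended (0.28 to 0.47), and without any of 5 that of LSM7 ended (-0.40 to -0.29). The count ran from 0 without PC3 siControl replicate 2 or MG63 siLARP4A replicate 2 to 5 without PC3 siLARP4A replicate 1.

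Set directly against each other, the siRNAs differed for 27 of 49 members in PC3, 20 higher and 7 lower in siLARP4A, against 54.1% of all genes tested, with 26.3% higher and 27.8% lower. EXOSC3 (2.07 ± 0.11 (SE), adjusted p = 6.59e-13), DCP2 (1.99 ± 0.10 (SE), adjusted p = 6.34e-13) and LSM5 (0.87 ± 0.07 (SE), adjusted p = 1.55e-09) were higher in siLARP4A by the most. LSM7 and TOB1 were lower in siLARP4A by the most (-0.69 and -0.69), and PAN2 followed at -0.34. In MG63 the number was 29, 13 higher and 16 lower, against 43.8%, with 21.6% higher and 22.2% lower, and it was 19 without either siLARP4A library. BTG2 (1.95 ± 0.21 (SE), adjusted p = 9.53e-08), EXOSC3 (1.38 ± 0.11 (SE), adjusted p = 1.80e-09) and DCP2 (0.77 ± 0.11 (SE), adjusted p = 4.49e-06) were highest in siLARP4A relative to siLARP4B, and TOB1 (-0.81 ± 0.07 (SE), adjusted p = 2.97e-09), EXOSC7 (-0.60 ± 0.09 (SE), adjusted p = 8.07e-06) and PATL1 (-0.41 ± 0.07 (SE), adjusted p = 4.32e-05) lowest. Called in both lines were CNOT11, DCP2, DDX6, DIS3L, EDC3, EXOSC3, EXOSC10, LSM4, LSM5 and PAN3, higher in siLARP4A than in siLARP4B, and CNOT6L, DIS3, EXOSC7, LSM7, PATL1 and TOB1, lower. The share of all genes called alike in both lines was not computed for this comparison. With 54.1% and 43.8% of all genes called in the single lines, the list gives names only.

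Shorter mRNAs tended to be lower under siLARP4A. Spearman's rho between mRNA length and log2 fold change was 0.34 over the 49 members in PC3 and 0.39 in MG63, and 0.15 and 0.19 over all genes tested, which share the libraries and are not independent. Under siLARP4B it was 0.10 and 0.05 over the members. With a length trend removed from the counts the siLARP4A calls of EXOSC1 (-0.18), EXOSC3 (-0.19), EXOSC7 (-0.14) and EXOSC8 (-0.21) in PC3 and of EXOSC5 (-0.13), LSM6 (-0.24) and LSM7 (-0.15) in MG63 were lost. Calls of higher members were lost as well: EDC4 (0.12) and TOB2 (0.15) in PC3 siLARP4A and XRN1 (0.20) in MG63 siLARP4A. The PC3 siLARP4A count of lower exosome subunits was then 1. The fall of LSM7 in PC3 siLARP4A was -0.51 and still called. Under siLARP4B, EXOSC3 (-2.34 in PC3 and -1.59 in MG63), LSM4 (-1.04 and -0.88) and LSM5 (-1.02 and -0.47) kept their calls.

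Partners and cofactors of these complexes were described from a list of 52 genes, of which 48 were tested and 4, BTG3, LSM14A, DXO and SKIC2, were left out as symbols found at several places. In PC3 siLARP4A 11 were higher and 11 lower, in PC3 siLARP4B 10 and 17, in MG63 siLARP4A 6 and 13, and in MG63 siLARP4B 12 and 12. Over all genes tested the shares higher and lower in those comparisons were 19.5% and 16.9%, 24.8% and 20.8%, 13.3% and 13.5%, and 18% and 16.9%, and several of these counts lie near them. TNRC6A, a GW182 protein that brings CCR4-NOT to microRNA targets, was at 10.8 and 11.2 FPKM in PC3 siControl, 6.26 and 5.63 in siLARP4A and 15.9 and 15.6 in siLARP4B, and at 14.4 and 14.5 FPKM in MG63 siControl, 9.80 and 9.74 in siLARP4A and 20.0 and 21.6 in siLARP4B. It was thus low in siLARP4A and high in siLARP4B in both lines, with log2 fold changes of -0.87 and 0.51 in PC3 and -0.56 and 0.55 in MG63, all called. Its paralogue TNRC6C rose under siLARP4A in both lines (0.96 ± 0.13 and 0.61 ± 0.13, SE). RBM7, a subunit of the nuclear exosome targeting complex, fell under siLARP4A (-0.79 ± 0.10 in PC3 and -0.64 ± 0.10 in MG63).

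Under siLARP4B, ERI1, a 3′ exonuclease for histone mRNA and rRNA, fell from 3.94 and 4.16 to 1.80 and 1.77 FPKM in PC3 (-1.18 ± 0.09 (SE), adjusted p = 1.07e-09) and from 16.4 and 17.7 to 9.53 and 9.90 FPKM in MG63 (-0.79 ± 0.06 (SE), adjusted p = 2.38e-09). The siLARP4B libraries of ERI1 overlapped no siControl library. ZC3H12A, an endonuclease of inflammatory mRNAs, rose under siLARP4B in both lines (0.61 ± 0.11 and 1.03 ± 0.14) and under siLARP4A in MG63 (0.43), where leaving out any of 4 libraries ended the call (0.36 to 0.51). NANOS1, which binds CCR4-NOT, was higher in PC3 siLARP4A (0.70), a call lost without siControl replicate 2 (0.52).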

How the data were processed

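Each of the 12 libraries had a table of transcript models with a fragment count and an FPKM value, both as deposited by the authors, and 1 library also had a deduplicated table. The submitters' processing notes name hg38, FastQC, HISAT2, featureCounts and edgeR without versions; strand handling and annotation are not given in the sources used here. The counts deposited by the authors are whole fragments and a fragment in a shared exon is counted in every model, so 1 model per gene was used, the one with most fragments over the libraries. Symbols found at several places were left out (1807 symbols), except members. FPKM values, as deposited by the authors, give levels and are not tested. Counts were tested with edgeR 4.0.16 (R 4.3.3): TMM scaling, filterByExpr, 1 quasi-likelihood fit of 6 group means, with Benjamini-Hochberg adjustment over 15688 genes per comparison and a threshold of 0.05. "Called" means past it, and errors of log2 fold changes are SE.

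Values in every library were given for members with the 3 highest and 3 lowest called log2 fold changes in each comparison with siControl, and for those called alike in both lines at 0.4 or more; elsewhere the 3 highest and 3 lowest called are named, and of other decay genes the 2 highest and 2 lowest, of which 1 is not reported here. Genes with values in every library were chosen by their change, so libraries that do not overlap there add no evidence. Members and lists were chosen with earlier results of these data known. Alternatives were DESeq2 1.42.0, limma 3.58.1 on log2(FPKM + 1), DESeq2 size factors, other filters, the longest model, a fit per line, a length offset, the deduplicated table, a replicate block and each library left out; the sum with alternate copies was added after seeing the data. The steps were also run on simulated counts, drawn with the same spread for all genes and the same base levels in both lines. Those counts are simpler than the data, and nothing here rests on them. Promoter sequences are from RefSeq, in which all 50 members matched by symbol and 44 had a promoter window.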

Additional observations from a re-analysis of the deposited data

Results flagged for a closer look

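The test of the difference between the lines passed for 2 members under siLARP4A and 20 under siLARP4B. Values are log2 fold changes in PC3 minus those in MG63. Under siLARP4A they were 0.48 for DCP2 and -0.37 for LSM7. Under siLARP4B 7 of the 12 exosome subunits passed, all more negative in PC3. They were EXOSC3 (-0.70), EXOSC9 (-0.63), EXOSC8 (-0.43), EXOSC7 (-0.39), EXOSC5 (-0.37), EXOSC4 (-0.33) and EXOSC2 (-0.33). For EXOSC7 the log2 fold changes against siControl were -0.01 in PC3 and 0.38 in MG63, a rise in MG63. LSM1, TOB1 and UPF1 were likewise called higher in MG63 and not called in PC3. The LSM subunits LSM5, LSM1 and LSM3 differed by -0.48, -0.40 and -0.35, and the decapping enzyme DCP2 by -0.73. CNOT6 and CNOT1 differed by -0.50 and -0.30, PAN2 by 0.64, BTG2 by 1.57 and TOB1 by -0.31. Among the NMD factors the differences were -0.61 for SMG1, -0.42 for UPF3B and -0.26 for UPF1. The PARN difference of -2.57 cannot be read, since its fragments are split with an alternate copy.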

How the results depend on the processing

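Of 78 member calls against siControl, 47 held under every alternative in which the gene was tested and 31 were lost under at least 1. Of 22 between the lines, 10 held in the same sense. Genes of low level, such as BTG2 and DCP2, were not tested when genes under a mean of 5 FPKM were dropped. Their absence there was not counted as a loss. With DESeq2 the MG63 siLARP4A count fell from 13 to 8. The siLARP4A difference between the lines, 2 members, was 1 with DESeq2, 1 with the deduplicated table and 1 when genes under a mean of 5 FPKM were dropped. With the longest model the median siControl level in MG63 was 13.4 FPKM in place of 13.9. The PARN difference under siLARP4B turned from -2.57 to 0.29 with alternate copies summed. Leaving out 1 library gave 6 to 16 calls in MG63 siLARP4A, 19 to 30 between the siRNAs in MG63, 0 to 5 for the siLARP4A difference between the lines, and 6 to 12 (siLARP4A) and 7 to 12 (siLARP4B) in both lines. The replicate numbers do not pair the libraries (correlations of deviations -0.02 to 0.05); with the replicate block the counts were 18 and 27 in PC3 and 11 and 18 in MG63 for siLARP4A and siLARP4B, and 7 and 11 in both lines. Depth limits BTG2 and DCP1B most, with 29 and 56 fragments in their lowest library. LSM2 and PARN had 0 and 3 on the primary copy in theirs, and 96.2% and 59.8% of their fragments over all libraries lay on alternate copies.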
